A study of Homo sapiens with 12 samples.

Results

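The genes of glycolysis and of the hypoxia response were followed in a human podocyte line with inducible YAP. The list held 37 gene symbols, matched by symbol to their Ensembl identifiers. All 37 had a row in the count table of 62656 genes, and 36 of them passed the filter on low counts, as did 17470 genes in all. The exception was CA9, a carbonic anhydrase, with 9 counts over the 12 libraries. By role the list comprised 3 transporters, 16 glycolytic enzymes, 3 regulators of glycolytic or pyruvate flux, 2 alpha subunits of the hypoxia-inducible factor (HIF), 2 oxygen sensors and 11 other HIF targets.

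The cells were conditionally immortalized human podocytes, the cells that cover the filtration barrier of the glomerulus. All 4 groups carried a temperature-sensitive SV40 large-T antigen, grew at 33 °C and were held at 37 °C for 12 days to differentiate. The control line carried pCW-eGFP, and the other line carried a pCW construct for YAP5SA, a mutant YAP, the co-activator of TEAD transcription factors, that escapes Hippo kinase control and here has a FLAG-NLS tag. Both are Tet-On constructs, and each line received either no doxycycline or 0.1 µg/ml for 24 hours. Each of these 4 groups had 3 libraries, and the YAP5SA groups are called uninduced (no doxycycline) and induced (doxycycline). The labels do not say whether the replicates were separate cultures, so p-values reflect only how these samples vary, possibly for technical reasons. With 1 line per construct, an effect of the construct without doxycycline and any other difference between the lines cannot be told apart. Cells were kept in RPMI-1640, and the oxygen tension is not given in the labels.

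Glycolysis splits glucose to pyruvate. Glucose enters the cell through GLUT transporters, pyruvate is reduced to lactate by lactate dehydrogenase, and lactate leaves through monocarboxylate transporters. In normal oxygen, prolyl hydroxylases of the EGLN family mark the HIF alpha subunits for degradation by VHL. In low oxygen the alpha subunits persist, pair with ARNT and bind hypoxia response elements. This raises glucose transporters, glycolytic enzymes and regulators such as PDK1, which inhibits pyruvate dehydrogenase. The alpha subunits are controlled largely at the protein level, which RNA counts do not show. Podocytes are known to draw on glycolysis for much of their energy.

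Promoter sequence was read because many members are known HIF targets. RefSeq starts on GRCh38.p14 were given for 34 of the 37 members, 13 of them with more than 1 start. The table did not hold NDRG1, BNIP3L and SLC2A3. The core letters of the hypoxia response element, ACGTG or GCGTG on either strand, were in the 250 bases before a start of 29 of these 34 members (85.3%). The same letters were found for 47.4% of the 27305 genes of the table, and in 43.2% of its 35116 single promoters of that length. ACGTG alone was found for 58.8% of the members and 21.7% of all genes, and GCGTG alone for 55.9% and 36.2%. The E-box CACGTG, which contains ACGTG, was found for 23.5% of the members and 7.73% of all genes. GGAATG, the letters of the TEAD site through which YAP acts, was found for 14.7% of the members and 14.3% of all genes. Genes with several starts have more windows in which letters can occur. Among members, ACGTG or GCGTG stood before 17 of 21 that fell on YAP5SA induction and before 11 of 12 that were tested and did not fall. These pooled letters were thus about as common in both kinds of member. ACGTG alone stood before 52.4% of those that fell and 66.7% of those that did not, and GCGTG before 57.1% and 58.3%. CACGTG stood before 14.3% and 41.7%, and GGAATG before 19% and 8.33%. These splits of few genes were not tested, and a match is not evidence of a bound site.

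4 upstream stretches are shown, for the member with the smallest p on induction (PFKFB4), a classical HIF target that fell (BNIP3), and the 2 members that rose (EPAS1 and PGK1). They are the longest run, within the 250 bases before the single RefSeq start, that no GENCODE 29 exon covers. They run 5′ to 3′ on the gene's strand, with each match to either core or its reverse complement in capitals.
PFKFB4: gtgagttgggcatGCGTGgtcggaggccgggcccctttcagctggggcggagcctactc
BNIP3: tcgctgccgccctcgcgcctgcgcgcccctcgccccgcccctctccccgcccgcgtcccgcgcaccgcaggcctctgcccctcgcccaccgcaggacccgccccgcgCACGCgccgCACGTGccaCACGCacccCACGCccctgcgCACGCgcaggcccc
EPAS1: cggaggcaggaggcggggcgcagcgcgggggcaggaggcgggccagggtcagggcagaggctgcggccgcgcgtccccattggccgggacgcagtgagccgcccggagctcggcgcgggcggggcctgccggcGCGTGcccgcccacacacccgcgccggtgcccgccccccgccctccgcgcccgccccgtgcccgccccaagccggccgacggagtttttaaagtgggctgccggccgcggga
PGK1: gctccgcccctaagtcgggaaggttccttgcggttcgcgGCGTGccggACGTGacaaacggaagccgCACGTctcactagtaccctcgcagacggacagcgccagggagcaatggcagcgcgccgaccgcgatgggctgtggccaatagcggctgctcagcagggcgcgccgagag
The PFKFB4 stretch (chr3:48556924-48556982, minus strand) holds 1 GCGTG, beginning 166 bases before the start. The BNIP3 stretch (chr10:131982014-131982173, minus strand) holds 4 GCGTG matches around ACGTG on both strands, which overlap in a single CACGTG and begin 134 and 133 bases before the start. The EPAS1 stretch (chr2:46297157-46297401, plus strand) holds 1 GCGTG, beginning 117 bases before the start. The PGK1 stretch (chrX:78103998-78104173, plus strand) holds 1 GCGTG and 2 ACGTG matches, beginning between 183 and 211 bases before the start. Members that fell and members that rose both carried the letters.

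The libraries held 24477592 to 25993413 counts. Those of the GFP line reached at most 25177086 and those of the YAP5SA line at least 25493014, so depth followed the line, and all levels were scaled by TMM. The row of YAP1, which can count endogenous and transgene RNA together, stood at 173 to 375 CPM (a count relative to the TMM-scaled library size) in the 9 other libraries and at 1757, 1672 and 970 CPM in the induced ones. Of 18 podocyte markers, 15 passed the filter, but the defining genes NPHS1 and WT1 had a mean under 0.5 CPM. The summed podocyte markers lay between 3820 and 4256 CPM over all libraries, and the 8 parietal epithelial markers between 4280 and 4831 CPM. Tubule, endothelial and leukocyte markers summed to at most 3.51 CPM in any library. The 6 mesangial and fibroblast markers ranged from 1285 to 2741 CPM, with a similar span inside each group. The 6 cycling markers summed to 143 to 291 CPM in the GFP line, 305 to 333 CPM uninduced and 306 to 498 CPM induced, and none of them was called on induction. Of the markers that passed the filter, 3 podocyte, 1 parietal, 2 endothelial and 1 mesangial or fibroblast gene were called higher on induction, and 3 podocyte, 3 parietal, 1 mesangial or fibroblast and 1 leukocyte gene lower. Over all genes tested, 9.83% were called higher and 9.28% lower, by the threshold given below. Mitochondrial genes took 3.10% to 3.40% of the counts. The part of line, depth, cycling cells or these marker changes in the results was not tested. In bulk RNA, fewer cells of a kind and less RNA per cell cannot be told apart.

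With doxycycline in the YAP5SA line (induction), 21 of the 36 tested members were called lower and 2, EPAS1 and PGK1, higher. PGK1 was also higher with doxycycline in the GFP line. Of the 21 falls, 12 were also called in the difference between the responses of the lines, as was the rise of EPAS1. The largest fall was in PFKFB4, to 0.461 of its uninduced level, followed by KDM3A, ENO2, the lactate exporter gene SLC16A3, HIF1A, MXI1 and BNIP3. The falls in the enzymes of the main chain other than ENO2 were at most 0.31 on the log2 scale. A gene is called here at a Benjamini-Hochberg adjusted p below 0.05 in edgeR's quasi-likelihood test over all 17470 genes, and "rose" and "fell" are used only of called genes. Over all genes tested, 19.1% were called on induction, 9.28% lower and 9.83% higher. The median log2 change of the members was -0.22, beside -0.00 for all genes tested. The 21 falls ranged from -1.12 to -0.15 with a median of -0.31 on the log2 scale, 10 of them were under 0.3 in size, and 2 (PFKFB4 and KDM3A) reached 1.5-fold. In all 21 the 3 induced libraries lay below the 3 uninduced ones, as they did for 16.8% of all genes tested.

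**Figure D1:**
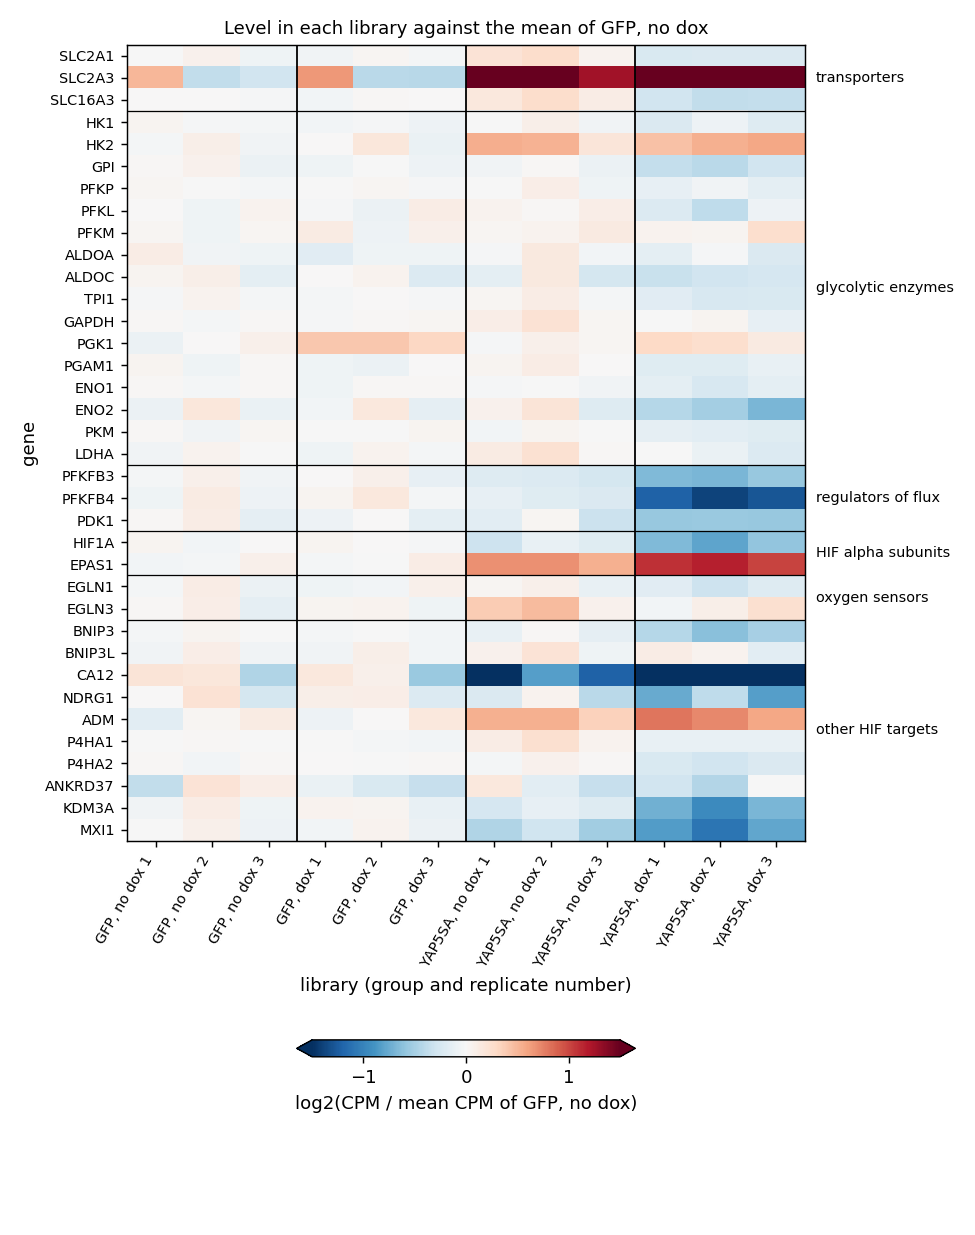
Level of the 36 tested members (rows, grouped by role) in each of the 12 libraries (columns, grouped by line and treatment), as log2 of CPM over the mean CPM of GFP without doxycycline, with colours cut at 1.5 in size. The GFP columns are pale except for PGK1, SLC2A3 and a few others, the induced YAP5SA columns are mostly blue, and EPAS1, HK2, ADM and SLC2A3 are red in the YAP5SA line with and without doxycycline.

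PFKFB4 makes the bifunctional enzyme that sets fructose 2,6-bisphosphate, an activator of phosphofructokinase (ENSG00000114268, chromosome 3, 48517684 to 48562015, minus strand, GRCh38). Its level was 73.7, 83.9 and 73.2 CPM in GFP without doxycycline, 79.0, 86.0 and 75.5 CPM in GFP with it, 70.5, 67.9 and 66.1 CPM uninduced and 33.1, 29.5 and 31.7 CPM induced. The 3 induced libraries lay below all others, and no other library fell under 66.1 CPM. The log2 change on induction was -1.12 ± 0.07 (SE, n = 3 per group, edgeR adjusted p = 2.10e-06). The neighbouring gene UCN2, on the same strand within the span of PFKFB4, had 43.0% as many counts and changed by -1.03 ± 0.11 (edgeR adjusted p = 3.99e-05). Exons of other genes on the same strand cover 4.73% of the exon bases of PFKFB4. PFKFB3, its paralog, fell by 0.42 on the log2 scale (edgeR adjusted p = 2.16e-04). PDK1, which inhibits pyruvate dehydrogenase, fell by the same 0.42 (edgeR adjusted p = 0.00324). All 3 regulators of flux thus fell, beside 9.28% of all genes tested. Their summed level went from 200 ± 8.12 CPM uninduced to 130 ± 3.78 CPM induced (SD, n = 3).

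Of the 3 transporters, 2 fell on induction, beside 9.28% of all genes tested, and SLC2A3 was not called. SLC16A3, the lactate exporter MCT4 (ENSG00000141526, chromosome 17, 82228397 to 82261129, plus strand), was measured at 314, 315 and 310 CPM in GFP without doxycycline, 305, 318 and 314 CPM in GFP with it, 350, 376 and 339 CPM uninduced and 256, 242 and 244 CPM induced. The uninduced libraries were the highest and the induced the lowest, without overlap with any other group. The change on induction was -0.52 ± 0.04 (SE, edgeR adjusted p = 7.26e-06). CSNK1D, on the opposite strand, overlaps it, with 71.0% as many counts and a change of 0.02 ± 0.05. SLC2A1, the glucose transporter GLUT1 (ENSG00000117394, chromosome 1, 42925375 to 42959176, minus strand), stood at 334, 352 and 322 CPM in GFP without doxycycline, 325, 343 and 329 CPM in GFP with it, 388, 402 and 349 CPM uninduced and 288, 289 and 289 CPM induced. The induced libraries lay below all 9 others. SLC2A1 fell by 0.40 on the log2 scale (SE 0.05, edgeR adjusted p = 1.65e-04).

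SLC2A3, the high-affinity glucose transporter GLUT3, was described after its values were seen. It was at 77.3, 42.3 and 44.8 CPM in GFP without doxycycline, 86.1, 41.3 and 41.0 CPM in GFP with it, 172, 227 and 132 CPM uninduced and 247, 412 and 226 CPM induced. Replicate 1 was the highest of each GFP group and replicate 2 the highest of each YAP5SA group. Induced and uninduced libraries overlapped, and the change of 0.74 ± 0.39 was not called (edgeR adjusted p = 0.232). Of the alternatives, only the replicate block in the YAP5SA groups alone called it (edgeR adjusted p = 0.00102). Per kilobase of exon, SLC2A3 rested at 8.89 ± 3.17 CPM and SLC2A1 at 71.2 ± 3.21 CPM in GFP without doxycycline, and at 47.9 ± 16.6 and 61.0 ± 0.139 CPM when induced (SD, n = 3).

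Of the 16 glycolytic enzymes, 9 fell, 1 rose and 6 were not called, beside 9.28% lower and 9.83% higher over all genes tested. The HK1 call was lost without YAP5SA uninduced replicate 1 or 2 or induced replicate 1 or 3 and in a fit of the 2 YAP5SA groups alone. The ENO1 call was lost without uninduced replicate 1 or 2 or induced replicate 2, and the PFKL call with the GC correction. Taken in the order of the pathway, HK1, which phosphorylates glucose, changed by -0.17, GPI, the isomerase, by -0.31, PFKL, a phosphofructokinase, by -0.28, TPI1 by -0.25, PGAM1 by -0.21, ENO1 and ENO2, the enolases, by -0.15 and -0.57, PKM, pyruvate kinase, by -0.15 and LDHA by -0.22. ENO2, the enolase of neurons, was the largest of these (SE 0.12, edgeR adjusted p = 0.00552). The steps without a call were HK2 (0.09), PFKP (-0.12), PFKM (0.05), ALDOA (-0.16), ALDOC (-0.22) and GAPDH (-0.15). At each step of the chain between hexokinase and lactate dehydrogenase at least 1 gene fell, except at aldolase, glyceraldehyde-3-phosphate dehydrogenase and phosphoglycerate kinase. At the hexokinase step this rests on HK1, at the phosphofructokinase step on PFKL and at the lactate dehydrogenase step on LDHA. The summed level of the 16 enzymes was 8517 ± 370 CPM uninduced and 7670 ± 191 CPM induced (SD, n = 3), and 8262 ± 65.7 and 8372 ± 107 CPM in GFP without and with doxycycline.

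LDHA (ENSG00000134333, chromosome 11, 18394388 to 18408425, plus strand) was at 868, 934 and 895 CPM in GFP without doxycycline, 863, 935 and 880 CPM in GFP with it, 976, 1053 and 910 CPM uninduced and 899, 838 and 780 CPM induced. Induced libraries lay below uninduced ones but overlapped the GFP libraries. The change on induction was -0.22 ± 0.06 (SE, edgeR adjusted p = 0.0206). The call was lost without YAP5SA uninduced replicate 1 or 2 or induced replicate 2 or 3 and in a fit of the 2 YAP5SA groups alone. GAPDH (ENSG00000111640, chromosome 12, 6533927 to 6538374, plus strand), often used as a reference gene, was at 1694, 1648 and 1694 CPM in GFP without doxycycline, 1664, 1693 and 1709 CPM in GFP with it, 1795, 1955 and 1709 CPM uninduced and 1666, 1723 and 1536 CPM induced. Induced and uninduced libraries overlapped by 1 library, and the change of -0.15 ± 0.05 did not pass (edgeR adjusted p = 0.0636). It passed with no filter on low counts and with the replicate block, both over 12 libraries and in the YAP5SA groups alone. The same held in 2 of 12 fits with a library left out. An antisense gene lies within GAPDH, and 14.2% of its exon bases are shared with other genes.

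PGK1, phosphoglycerate kinase, was the only enzyme that rose on induction, and it was also higher with doxycycline in the GFP line. The gene (ENSG00000102144, chromosome X, 77910739 to 78129296, plus strand) was at 385, 410 and 428 CPM in GFP without doxycycline, 541, 539 and 504 CPM in GFP with it, 401, 429 and 416 CPM uninduced and 501, 486 and 448 CPM induced. In both lines each library with doxycycline lay above each without. The induction change was 0.21 ± 0.05 (SE, edgeR adjusted p = 0.0145), and the call was lost without YAP5SA uninduced replicate 1 or induced replicate 1. In the GFP line the change was 0.37 ± 0.05 (unadjusted p = 7.30e-06, edgeR adjusted p = 0.127). With the replicate number as a block in a fit of the GFP groups alone it was 0.37 ± 0.05 and did not pass (edgeR adjusted p = 0.292). With that block over the 12 libraries it passed (edgeR adjusted p = 0.0143), as it did with DESeq2 (adjusted p = 1.76e-06) and with no filter on low counts (edgeR adjusted p = 1.17e-06), but in none of the other alternatives. The difference between the responses of the lines, -0.17 ± 0.07, was not called (edgeR adjusted p = 0.211).

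ALDOA, an aldolase, had the second smallest p of the members for doxycycline in the GFP line (unadjusted p = 0.183). Its levels were 62.9, 55.8 and 55.3 CPM without and 51.7, 55.5 and 55.4 CPM with doxycycline there, 57.3, 64.4 and 56.6 CPM uninduced and 52.6, 57.2 and 49.8 CPM induced. The groups overlapped in both lines. Exons of other genes cover 53.5% of its exon bases, 42.3% on the same strand, so its row (ENSG00000149925, chromosome 16, 30064164 to 30070457, plus strand) may hold only some of its reads, and its level is uncertain.

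**Figure D2:**
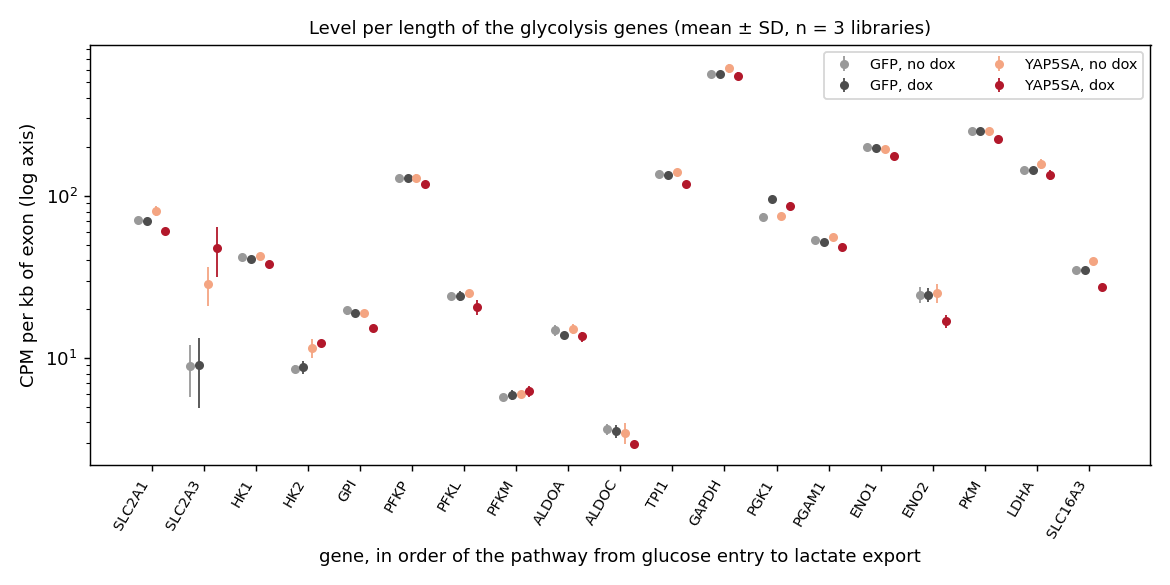
CPM per kilobase of exon (log axis, mean ± SD over 3 libraries) of the glucose and lactate transporters and glycolytic enzymes in the order of the pathway, for the 4 groups. GAPDH, at 573 over all libraries, and PKM, at 244, are highest, and the induced group lies lowest for most genes but not for SLC2A3, HK2, PFKM and PGK1.

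Per kilobase of exon and over all 12 libraries, GAPDH led with 573 CPM, followed by PKM (244), ENO1 (192), LDHA (145), TPI1 (133) and PFKP (126). Among isoenzymes, HK1 stood at 40.8 and HK2 at 10.3, ENO1 at 192 and ENO2 at 22.8, and PFKP at 126, PFKL at 23.4 and PFKM at 5.97. The isoenzyme with the lower level had the larger fall at the enolase step, while at the hexokinase step the lower one (HK2) was not called.

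The 2 HIF alpha subunits moved in opposite directions. HIF1A (ENSG00000100644, chromosome 14, 61695513 to 61748259, plus strand) was at 496, 468 and 483 CPM in GFP without doxycycline, 498, 483 and 476 CPM in GFP with it, 387, 447 and 426 CPM uninduced and 305, 279 and 319 CPM induced. The levels stepped down from GFP to uninduced to induced with no overlap. On induction it fell by 0.48 on the log2 scale (SE 0.06, edgeR adjusted p = 9.17e-05). Its antisense gene HIF1A-AS3, with 6.42% as many counts, rose by 1.10 (SE 0.33, edgeR adjusted p = 0.0442). EPAS1, which makes HIF-2 alpha (ENSG00000116016, chromosome 2, 46293667 to 46386703, plus strand), was at 481, 483 and 520 CPM in GFP without doxycycline, 485, 492 and 534 CPM in GFP with it, 796, 798 and 715 CPM uninduced and 1059, 1106 and 1002 CPM induced. Its levels stepped up in the same order, again with no overlap. The rise on induction was 0.46 ± 0.06 (SE, edgeR adjusted p = 1.30e-04). Per kilobase of exon, HIF1A and EPAS1 were at 93.6 ± 2.70 and 67.8 ± 2.96 CPM in GFP without doxycycline, 81.5 ± 5.85 and 105 ± 6.51 CPM uninduced, and 58.5 ± 3.89 and 145 ± 7.17 CPM induced (SD, n = 3). The order of the pair thus differed between the lines per kilobase of exon, with lengths of 5151 bases for HIF1A and 7302 for EPAS1. In CPM the order did not differ, and EPAS1 had the higher mean in each group. In GFP the means of HIF1A and EPAS1 were close, at 482 and 495 CPM without doxycycline and 486 and 504 CPM with it. The libraries of the pair overlapped there, so the order in GFP rests on the exon lengths used.

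**Figure D3:**
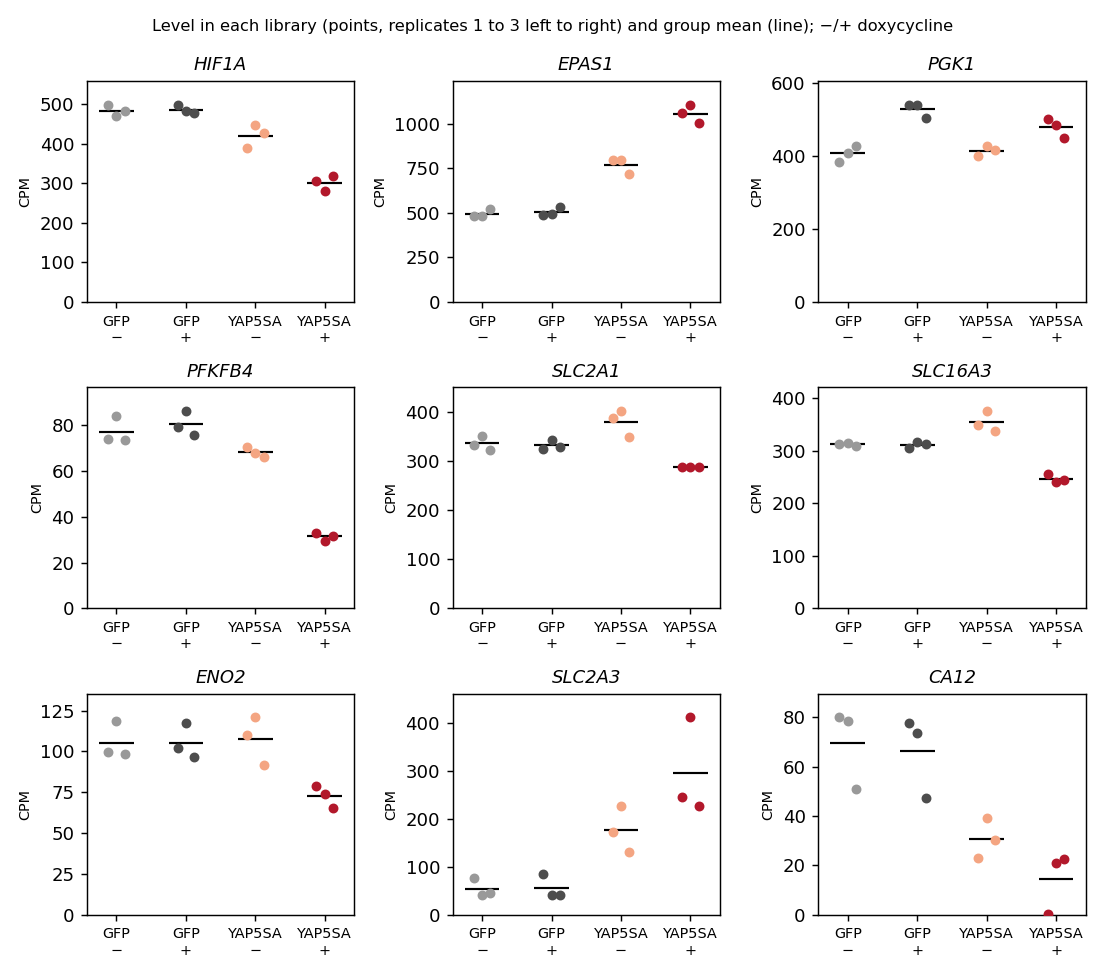
CPM of 9 members in each library (points), by group with the group mean (line), on axes that start at 0. HIF1A and EPAS1 move in opposite directions across the groups, PGK1 is higher with doxycycline in both lines, PFKFB4, SLC2A1, SLC16A3 and ENO2 are lowest when induced, and SLC2A3 and CA12 vary widely within groups.

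Of the oxygen sensors, EGLN1, the main HIF prolyl hydroxylase, was called lower at -0.22 ± 0.07 (SE, edgeR adjusted p = 0.0475). The call was lost in 9 of the 12 fits with 1 library left out and in 6 other settings, among them DESeq2. EGLN3, itself a HIF target, changed by -0.22 ± 0.10 and was not called. SPTSSA, on the same strand and overlapping the span of EGLN3, had 121% as many counts and rose by 0.45. Exons of other genes cover 0.0% of the exon bases of EGLN3.

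Among the 10 other HIF targets tested, 5 fell and none rose, beside 9.28% lower and 9.83% higher over all genes tested. The lack of a rise was near that share. BNIP3, a mitophagy receptor (ENSG00000176171, chromosome 10, 131966455 to 131982013, minus strand), was at 108, 114 and 110 CPM in GFP without doxycycline, 108, 110 and 107 CPM in GFP with it, 102, 112 and 101 CPM uninduced and 82.1, 71.5 and 78.0 CPM induced. Only the induced group stood apart, below all 9 others. The change was -0.44 ± 0.05 (SE, edgeR adjusted p = 1.06e-04). KDM3A, a histone H3 lysine demethylase (ENSG00000115548, chromosome 2, 86440647 to 86492716, plus strand), was at 60.6, 67.7 and 59.7 CPM in GFP without doxycycline, 65.0, 64.4 and 58.1 CPM in GFP with it, 52.4, 57.5 and 54.8 CPM uninduced and 38.0, 32.4 and 38.8 CPM induced. The induced libraries lay below all others, and the change was -0.59 ± 0.08 (SE, edgeR adjusted p = 1.57e-04).

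MXI1, a MAX partner that opposes MYC (ENSG00000119950, chromosome 10, 110207605 to 110287365, plus strand), was at 42.7, 45.2 and 40.9 CPM in GFP without doxycycline, 41.8, 44.6 and 40.3 CPM in GFP with it, 31.4, 34.8 and 29.8 CPM uninduced and 24.1, 20.1 and 24.9 CPM induced. It stepped down in the same order as HIF1A, without overlap, and fell by 0.47 on induction (SE 0.08, edgeR adjusted p = 0.00152). P4HA1 and P4HA2, the collagen prolyl hydroxylases, fell by 0.24 and 0.26 on the log2 scale. PDLIM4, on the opposite strand of P4HA2, has 62.9% as many counts and fell by 0.44. BNIP3L, a paralog of BNIP3, changed by -0.07, NDRG1, a stress-response gene, by -0.46, and ANKRD37 by -0.13, none of them called. NDRG1 was called lower with DESeq2 and with the replicate block, both over 12 libraries and in the YAP5SA groups alone. The same held in 1 of 12 fits with a library left out. Exons of other genes cover 35.2% of the exon bases of ANKRD37.

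ADM, which encodes the peptide hormone adrenomedullin (ENSG00000148926, chromosome 11, 10304680 to 10307397, plus strand), was not called on induction. It was at 46.2, 52.4 and 56.0 CPM in GFP without doxycycline, 48.8, 51.8 and 57.7 CPM in GFP with it, 74.7, 74.6 and 65.4 CPM uninduced and 89.8, 84.9 and 76.8 CPM induced. Each induced library lay above each uninduced one, as for 17.8% of all genes, and the change was 0.23 ± 0.08 (edgeR adjusted p = 0.0806). ADM was called higher with the GC correction, with the replicate block in the YAP5SA groups alone and in 1 fit with a library left out. CA12, a membrane carbonic anhydrase described after its values were seen, was at 79.9, 78.3 and 51.1 CPM in GFP without doxycycline, 77.7, 73.7 and 47.2 CPM in GFP with it, 23.1, 39.3 and 30.1 CPM uninduced and 0.356, 21.0 and 22.6 CPM induced. Induced replicate 1 stood close to 0, which gave the change of -1.07 a wide error of 0.74 (edgeR adjusted p = 0.371).

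**Figure D4:**
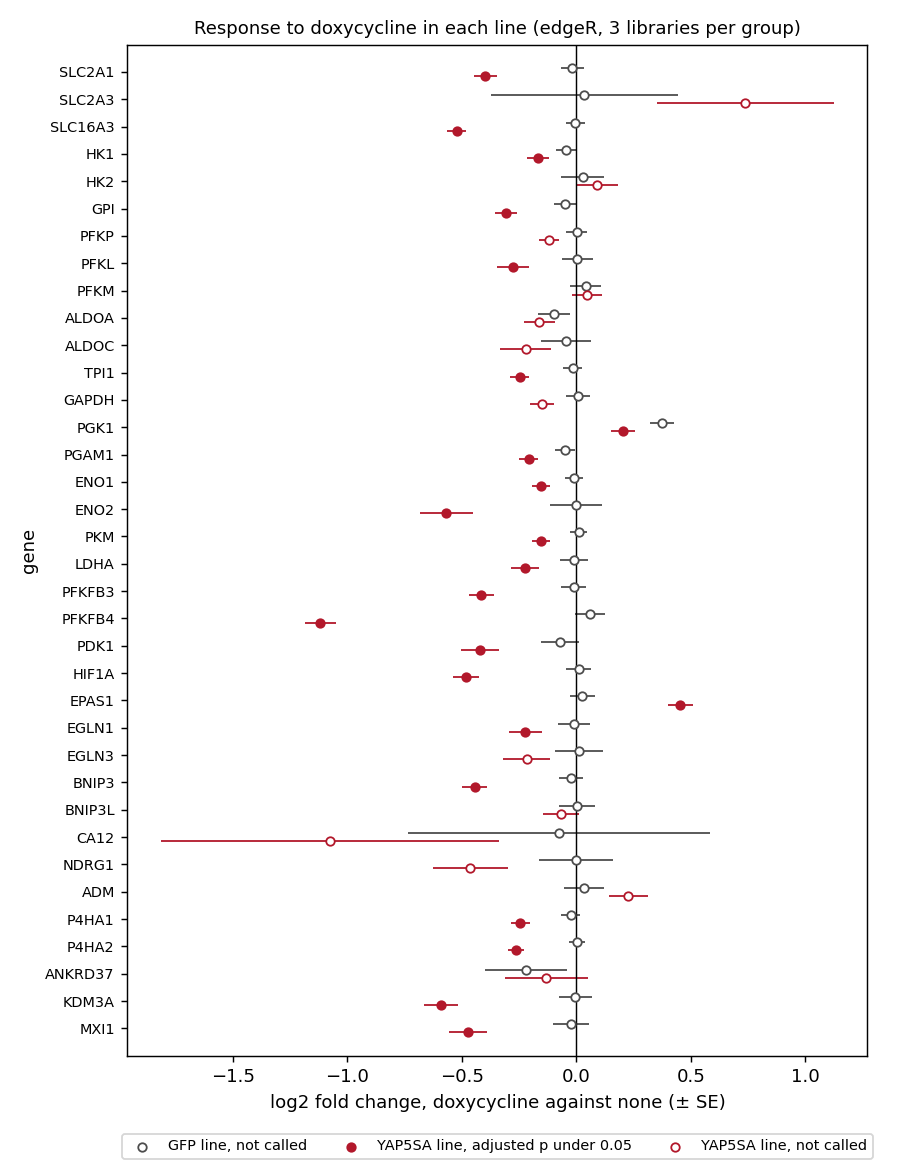
Log2 change with doxycycline (± SE, 3 libraries per group) of the 36 tested members in the GFP line (grey) and the YAP5SA line (red), with filled points for an edgeR adjusted p below 0.05. In the GFP line all members but PGK1 lie between -0.22 and 0.06 and no point is filled, while in the YAP5SA line 21 filled points lie below 0 and EPAS1 and PGK1 above.

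Doxycycline in the GFP line, which carries the Tet-On eGFP construct, served as the control for the inducer. No line without such a construct was included, so effects of doxycycline and of the induced eGFP construct cannot be told apart. In the GFP line no member was called, and over all genes tested 0% were called by edgeR. The libraries with and without doxycycline did not overlap for 1 member, PGK1, which lay above, beside 3.35% of all genes above and 2.87% below. At an unadjusted p below 0.05 there were 282 genes (1.61%), PGK1 the only member among them. DESeq2 called 1 gene in all, which was PGK1. These counts come from the fit without a replicate block. With the block in the GFP groups alone, 20 genes were called and no member was among them, and with the block over 12 libraries 1 gene was called, PGK1. The 35 other members changed by between -0.22 (ANKRD37) and 0.06 (PFKFB4).

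The difference between the responses of the 2 lines (the interaction) was called for 13 members, beside 6.88% of all genes tested. It was lower for 12 of them and higher for 1, beside 3.28% and 3.6% of all genes. The 12 were PFKFB4, KDM3A, SLC16A3, HIF1A, MXI1, BNIP3, PFKFB3, SLC2A1, P4HA2, GPI, TPI1 and P4HA1, all of which also fell on induction, and EPAS1 was the one called higher. The 3 with the smallest p were PFKFB4 at -1.18 ± 0.09 (edgeR adjusted p = 9.56e-05), SLC16A3 at -0.52 ± 0.06 (edgeR adjusted p = 4.56e-04) and HIF1A at -0.49 ± 0.08 (edgeR adjusted p = 0.00319). EPAS1 differed by 0.43 ± 0.08 (edgeR adjusted p = 0.00668). The other 9 members that fell on induction were not called here, including ENO2 at -0.57 ± 0.16 (edgeR adjusted p = 0.0617), LDHA at -0.21 ± 0.09 (edgeR adjusted p = 0.173) and PKM at -0.16 ± 0.05 (edgeR adjusted p = 0.0867). With the replicate block over 12 libraries the interaction was called lower for 17 members and higher for 1, among 2418 genes in place of 1202, and ENO2 (edgeR adjusted p = 2.95e-04) and LDHA (edgeR adjusted p = 0.0395) then passed. Both contrasts rest on the same YAP5SA libraries.

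Before induction the lines differed in 9 members, of which EPAS1, ADM and MXI1 were called in each of the 12 fits that left out 1 library. Without doxycycline, 6 members were higher and 3 lower in YAP5SA than in GFP, beside 6.04% and 2.61% of all genes tested (8.65% in either direction). The libraries of 7 members lay wholly above and of 6 wholly below those of GFP, beside 16.4% and 13.1% of all genes. EPAS1 was higher by 0.64 ± 0.06 (SE, edgeR adjusted p = 8.16e-05) and ADM by 0.47 ± 0.09 (edgeR adjusted p = 0.00537), while MXI1 was lower at -0.42 ± 0.08 (edgeR adjusted p = 0.00642). For these 3 genes the libraries of the lines did not overlap. The 3 transporters were called higher, SLC2A3 by 1.69 ± 0.40 (edgeR adjusted p = 0.0365), SLC16A3 by 0.18 ± 0.04 (edgeR adjusted p = 0.0173) and SLC2A1 by 0.18 ± 0.05 (edgeR adjusted p = 0.0483). HK2 was higher by 0.43 ± 0.09, and HIF1A and PFKFB3 were lower at -0.20 and -0.22. The calls of the last 6 genes were less stable. Of 12 fits that left out 1 library, 11 lost SLC2A1, 9 HIF1A, 5 SLC2A3, 5 PFKFB3, 4 SLC16A3 and 3 HK2, and all 6 calls were lost without uninduced replicate 1. The SLC2A3 call was also lost in 4 other settings and the SLC2A1 call in 6. The counts moved most without GFP replicate 1 or 2 or uninduced replicate 1 or 2, which left 2 or 3 members higher. Leaving out any of GFP replicate 1, GFP replicate 2, uninduced replicate 1 or uninduced replicate 3 left 1 lower.

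With doxycycline in both lines, 20 members were lower and 4 higher in YAP5SA than in GFP, beside 18.4% and 19.9% of all genes tested (38.3% in either direction). The libraries of 23 members lay wholly below and of 4 wholly above, beside 24.3% and 24.6% of all genes. The 4 were EPAS1 (1.07 ± 0.06), SLC2A3 (2.40 ± 0.41), ADM (0.67 ± 0.09) and HK2 (0.49 ± 0.09), and all 4 were also higher without doxycycline. The largest differences with small errors on the lower side were PFKFB4 (-1.35 ± 0.07), MXI1 (-0.87 ± 0.08), KDM3A (-0.78 ± 0.07), HIF1A (-0.69 ± 0.06) and PFKFB3 (-0.63 ± 0.06). NDRG1 was also lower, at -0.64 ± 0.16 (edgeR adjusted p = 0.0107). CA12 was lower at -2.18 ± 0.73 (edgeR adjusted p = 0.0446), a call lost in 11 of 12 fits with 1 library left out. PGK1 was lower at -0.14 ± 0.05 (edgeR adjusted p = 0.0456), and 8 of those fits lost it. The EGLN1 call was lost in 6 of those fits and the PFKL call in 4. PFKL was also lost with the GC correction and in a fit of the 2 groups alone, and its libraries overlapped. Of the 21 members that fell on induction, 17 were lower here as well, and the other 4 were HK1, PGAM1, LDHA and P4HA1. Before induction, 16 of the 21 had not been called between the lines, 2 (SLC2A1 and SLC16A3) had been higher and 3 (PFKFB3, HIF1A and MXI1) lower.

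Genes of the same pathways outside the list were counted in the same fit. Of 23 other glycolysis and glucose entry genes tested, 4 rose and 6 fell on induction. For this list and the others, the share over all genes tested was 9.83% higher and 9.28% lower, with a median of -0.00. SLC16A1, the lactate carrier MCT1, rose by 0.43 and SLC16A7, a related carrier, by 0.44, while SLC16A3 fell. MINPP1 rose by 0.32, and GBE1, the glycogen branching enzyme, fell by 0.30 on the log2 scale. Of 13 genes for the mitochondrial pyruvate carriers, pyruvate dehydrogenase with its regulators, and pyruvate carboxylase, 3 rose and 1 fell. The carrier genes MPC1 and MPC2 were not among those called. DLAT and PDHA1, subunits of pyruvate dehydrogenase, rose by 0.30 and 0.20, and PDP2, a phosphatase that activates the complex, rose by 0.26 while PDP1 fell by 0.35. Of 7 pentose phosphate genes none rose and 3 fell, among them PGD (-0.18) and TKT (-0.25).

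Of 44 other HIF targets tested, 1 rose and 15 fell, with a median of -0.20. ANGPTL4, an inhibitor of lipoprotein lipase, changed by -0.91, NARF by -0.59, PPFIA4 by -0.96 and PLIN2, a lipid droplet coat protein, by -0.92. All 4 fell with edgeR adjusted p between 7.87e-05 and 1.85e-04. Of 24 genes of oxygen sensing and HIF machinery, 2 rose and 4 fell, the rises near the share over all genes. MLXIP, a glucose-responsive partner of MLX, fell by 0.52 and TXNIP, a known target of that partnership which limits glucose uptake, by 1.15. VHL, which recognizes hydroxylated HIF alpha, fell by 0.25, and PPARGC1A, a co-activator of mitochondrial genes, rose by 1.11 from 1.98 ± 0.124 to 4.28 ± 0.533 CPM (SD, n = 3). The genes named are among the 4 of each list with the smallest p.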

How the data were processed

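RNA of 12 libraries was made from 1000 ng of total RNA with an mRNA kit, per the labels' protocols. The authors deposited whole-number counts of reads per gene. The submitters' processing notes name GRCh38 (hg38) and the tools Subread, featureCounts, DRAGEN, DESeq2 and limma. No source used here gives their versions or whether strand was used, so antisense reads cannot be told apart from a gene's own. Positions came from GENCODE 29 and promoters from RefSeq.

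The test was edgeR 4.0.16 under R 4.3.3 (filterByExpr, TMM, robust quasi-likelihood, all 12 libraries, 8 residual degrees of freedom, 5 comparisons) after a test on simulated data. CPM carries the TMM factors. Alternatives were RLE and upper-quartile scaling, the members left out of library sizes, no filter or a stricter one, DESeq2 1.42.0, limma-voom 3.58.1, groups alone, a replicate block, a log2 minimum of 0.2, each library left out and, added after the data were seen, a GC correction. Deviations of same-numbered GFP libraries from group means correlated at 0.229, 0.425 and 0.413, which meets the rule for pairing by the labels' replicate numbers. Values in the text come from the fit without a block, and blocked values of that line stand beside them where they differ.

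The members and lists were chosen with earlier results of these data known. Values per library are given for the 6 members with the smallest p on induction, 3 in the interaction, 3 between the lines without doxycycline, 2 for doxycycline in the GFP line, and SLC2A1, GAPDH, LDHA, HIF1A and EPAS1. SLC2A3 and CA12 were added after their values were seen. Of each added list, up to 4 genes with the smallest p on induction are named. Some genes of the lists are not reported here.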

Additional observations from a re-analysis of the deposited data

Results flagged for a closer look

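The response to doxycycline differed between the YAP5SA and the GFP line, by the edgeR interaction test at an adjusted p below 0.05, for 13 members. The differences (YAP5SA minus GFP, log2) were -1.178 for PFKFB4, -0.588 for KDM3A, -0.518 for SLC16A3, -0.490 for HIF1A, -0.451 for MXI1, -0.420 for BNIP3, -0.405 for PFKFB3, -0.381 for SLC2A1, -0.268 for P4HA2, -0.258 for GPI, -0.231 for TPI1 and -0.218 for P4HA1. EPAS1, at 0.428, was the 1 member with a positive difference. The calls for GPI and TPI1 were each lost in 9 of 12 fits with 1 library left out, that for MXI1 in 8 and that for P4HA1 in 11.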

How the results depend on the processing

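No called member changed direction in any alternative. Of the 23 calls on induction, 11 were kept in every alternative and 17 in every one other than the log2 minimum of 0.2. For the interaction these numbers were 4 and 9 of 13, between the lines without doxycycline 2 and 3 of 9, and with doxycycline 14 and 19 of 24. With the log2 minimum of 0.2, 1 member was higher and 10 lower on induction, 0 and 4 in the interaction, 2 and 0 between the lines without doxycycline, and 11 were lower with it. Calls over all genes then numbered 1112, 360, 323 and 3341, against 3338, 1202, 1512 and 6691. In the GFP line, 1 member (PGK1) was called with no filter, with DESeq2 and with the replicate block over 12 libraries.

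The other comparisons do not meet the rule for pairing: replicate 1 correlated at -0.123 on induction, -0.289 without and -0.294 with doxycycline, and 4 of 6 libraries correlated best with their own number, against 6 of 6 in the GFP line. On induction, the replicate block in the groups compared alone gave 4 higher members, EPAS1, PGK1, ADM and SLC2A3. Between the lines without doxycycline it gave 7 lower, where the block over 12 libraries gave 5. All genes called then numbered 5066 on induction, 20 in the GFP line and 3169 without doxycycline for the groups alone, and 2418 in the interaction and 2994 without doxycycline over 12 libraries. The interaction has no value from the groups alone, with or without the block, because it needs all 4.

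Leaving out 1 library gave 1 to 3 higher and 17 to 24 lower members on induction, 8 to 14 lower in the interaction, 2 to 8 higher and 1 to 3 lower between the lines without doxycycline, and 16 to 19 lower with it. Uncalled induction changes crossed 0 when 1 library was left out, with ranges of -0.012 to 0.16 for HK2, -0.020 to 0.087 for PFKM, -0.13 to 0.011 for BNIP3L and -0.26 to 0.026 for ANKRD37. With the lowest depth at 24477592 counts, CA9 was too low to test.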
